A study of Homo sapiens with 8 samples.

Results

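The 10 genes described here are SIGLEC6, the leptin gene LEP and its receptor LEPR, the syncytin genes ERVW-1 and ERVFRD-1, the syncytin-2 receptor MFSD2A, and the placental secreted factors CGA, PGF, PAPPA2 and KISS1. They were taken by symbol from a table of 63816 gene entries, and each of the 10 symbols stood on 1 entry. Their levels in these samples were known when they were listed, so the levels are a description with no test. Only SIGLEC6 was abundant, at 139 ± 12.5 TPM (transcripts per 1000000 transcripts, SD, n = 8), whereas LEP was listed at 0 in 5 of the 8 libraries, and 0 of the 7 genes abundant enough to be tested were called different between the groups (limma, adjusted p under 0.05), against 0.648% of the 15590 entries tested.

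RNA-seq was performed on samples labelled as the colorectal adenocarcinoma cell line Caco-2. It was done to explore what SIGLEC12, which encodes Siglec-XII, does in cells described as lacking it. All 8 samples had been transfected with pcDNA3.1 and selected with G418, 4 with the empty vector and 4 with the vector carrying full-length SIGLEC12. The labels list 4 samples per group, while the series text speaks of fewer cultures and the study's methods of technical replicate libraries, so p-values measure only the spread between these samples, which may be technical. Each group went through its own transfection and selection as stable clones, so differences between the transfected populations and an effect of Siglec-XII cannot be told apart.

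Siglecs are cell surface lectins that bind sialic acid. SIGLEC6 encodes a member that also binds leptin and that is found on trophoblast, the epithelium of the placenta, as well as on mast cells and some B cells. Leptin is the hormone of fat tissue and is also secreted by the placenta. Syncytins are envelope proteins of ancient retroviruses that fuse trophoblast cells into the syncytiotrophoblast, the layer that releases chorionic gonadotropin and other pregnancy hormones.

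The labels were checked with the transfected gene. SIGLEC12 was at 0.0795 ± 0.0342 TPM (SD, n = 4) with the empty vector and at 1667 ± 71.3 TPM (SD, n = 4) with Siglec-XII, which matches the labels. The number of reads behind each value is unknown, and between 15513 and 15934 entries reached 1 TPM in each library. The labelled cell type was not matched by its markers. Of 20 genes typical of colon epithelium and enterocytes, 16 were under 1 TPM in every library, among them CDH17, which encodes an intestinal cadherin, and the transcription factor gene HNF4A. KRT20, FABP1 and SI, for a keratin, a fatty acid binding protein and sucrase-isomaltase, were listed at 0 in all 8 libraries, while the intestinal transcription factors CDX1 and CDX2 were at 147 and 40.6 TPM on average. Of 19 trophoblast markers, 17 were at 1 TPM or more in every library, including the transcription factor gene GATA3 at 331 to 479 TPM and HSD3B1, for a steroid-converting enzyme, at 316 to 370 TPM. The remaining trophoblast markers, ELF5 and GCM1, stayed under 1 TPM in every library, and HLA-G and CYP19A1 averaged 2.73 and 3.59 TPM. HLA-G stood on 8 entries and only the entry with the highest mean was used, so its total level is not known from this value. Markers of other cell types were also present. At 1 TPM or more in every library were 5 of 7 fibroblast markers, 2 of 6 pluripotent cell markers and 1 of 5 endothelial markers. Among them, COL1A1 averaged 50.7 TPM, and the pluripotent cell markers LIN28A and ZFP42 averaged 152 and 109 TPM. The other 4 pluripotent cell markers, POU5F1, NANOG, SOX2 and DPPA4, were under 1 TPM in every library. POU5F1 stood on 7 entries, of which the one with the highest mean was used. The summed level of the trophoblast list ran from 4256 to 4311 TPM with the empty vector and from 4181 to 4297 TPM with Siglec-XII. Its largest parts were XAGE3 and XAGE2, at 1179 and 767 TPM on average. The colon list summed to 163 to 186 TPM and to 190 to 216 TPM in the respective groups. Most of the colon sum was CDX1 and CDX2, and neither was called different between the groups (limma, adjusted p = 0.202 and 0.252). The part of cell identity in the levels below was not tested. In bulk RNA, fewer cells of a type and less RNA per cell cannot be told apart.

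The stretches upstream of the start sites of 4 genes are shown for SIGLEC6 and its neighbour SIGLEC12, which differ in level, and for the hormone genes CGA and LEP, which were low. No test relates these sequences to the levels. The sequences are the 250 bases before the start site from RefSeq (GRCh38.p14), 5′ to 3′ on the strand of the gene. In the first pair, capitals mark the 3 runs of 12 or more bases that both share in their alignment, the longest of 15 bases. None of the 74 other pairs of windows from different genes, taken from SIGLEC12 and the 9 of the 10 genes with an entry, had such a run. Of 2 starts listed for SIGLEC12, the one with these shared runs is shown, and this endogenous stretch is not the promoter of the transfected vector. In CGA, capitals mark TGACGTCA, the cAMP response element, and in LEP they mark TTGCNNAA, a C/EBP motif.
SIGLEC6, chr19:51531671-51531920, minus strand: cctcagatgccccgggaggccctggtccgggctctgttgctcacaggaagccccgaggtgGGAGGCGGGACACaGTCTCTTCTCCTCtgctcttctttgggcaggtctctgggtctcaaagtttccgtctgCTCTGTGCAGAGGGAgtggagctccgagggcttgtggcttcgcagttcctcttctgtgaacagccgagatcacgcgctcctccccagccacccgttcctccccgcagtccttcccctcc
SIGLEC12, chr19:51500394-51500643, minus strand: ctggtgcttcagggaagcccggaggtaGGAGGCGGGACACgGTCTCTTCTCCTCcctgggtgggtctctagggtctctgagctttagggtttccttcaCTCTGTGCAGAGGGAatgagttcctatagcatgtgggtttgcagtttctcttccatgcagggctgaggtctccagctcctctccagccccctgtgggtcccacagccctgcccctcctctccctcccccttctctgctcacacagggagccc
CGA, chr6:87095107-87095356, minus strand: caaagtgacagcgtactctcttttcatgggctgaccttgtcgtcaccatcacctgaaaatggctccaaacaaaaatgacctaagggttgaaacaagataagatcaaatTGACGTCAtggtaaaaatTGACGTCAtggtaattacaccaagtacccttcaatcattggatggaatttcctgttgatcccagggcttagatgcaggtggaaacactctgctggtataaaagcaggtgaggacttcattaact
LEP, chr7:128241028-128241277, plus strand: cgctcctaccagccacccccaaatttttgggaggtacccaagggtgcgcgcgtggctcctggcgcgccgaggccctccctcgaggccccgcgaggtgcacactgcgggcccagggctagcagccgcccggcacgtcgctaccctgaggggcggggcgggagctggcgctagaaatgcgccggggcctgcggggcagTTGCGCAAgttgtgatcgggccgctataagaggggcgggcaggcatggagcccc

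SIGLEC6 (ENSG00000105492, GRCh37 chromosome 19, 52021073 to 52035110, minus strand) was high in every library. With the empty vector it was at 119, 141, 130 and 145 TPM in replicates 1 to 4, and with Siglec-XII at 150, 151, 125 and 151 TPM. Replicate 3 of Siglec-XII lay below the other libraries of its group and inside the range of the empty vector, so the groups overlapped. On the log2(TPM + 1) scale the group means were 7.07 ± 0.13 and 7.18 ± 0.13 (SD, n = 4 each). The difference, Siglec-XII minus empty vector, was 0.11 (SE 0.081), with a 95% interval from 0.949-fold to 1.22-fold and an adjusted p of 0.548 (limma). With 1 library left out the SIGLEC6 difference lay between 0.052 (without replicate 1 of the empty vector) and 0.17 (without replicate 3 of Siglec-XII), and scaling to equal quantiles gave 0.040. Among all entries of a library SIGLEC6 ranked between 1090 and 1350 by level. The 3 tested entries whose levels followed SIGLEC6 most closely over the 8 libraries were CRNDE, a long noncoding RNA, with a Pearson r of 0.988, PRMT6, for an arginine methyltransferase, with 0.973, and GALT, for an enzyme of galactose metabolism, with 0.970. A total of 64 tested entries had an r above 0.9, all from the same 8 libraries and chosen by r, so these values are a description.

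SIGLEC6 was far above the other Siglec genes except the transfected SIGLEC12. On GRCh37, 16018 bases separate it from SIGLEC12 (chromosome 19, 51994481 to 52005054), which lies on the same strand, and with the empty vector SIGLEC6 was at 134 TPM where SIGLEC12 was at 0.0795 TPM. Of the 13 other Siglec genes, 12 were under 1 TPM in every library, and the highest value of any of them was 1.32 TPM, for SIGLEC5. With Siglec-XII, the SIGLEC12 level was 10.5 to 13.9 times that of SIGLEC6 in the same library. None of the 31-base stretches of SIGLEC6 transcripts occurred in SIGLEC12 transcripts (annotated transcripts). Of the 4421 stretches, 750 (17.0%) occurred in some other gene, 372 of them in an antisense long noncoding RNA that was at 0 in 6 libraries and at most at 0.850 TPM. Whether the authors' counting used strand is not given in the sources used here. Of 11 markers of mast cells, B cells and macrophages, the 8 that mark mast cells, B cells or blood cells in general were under 1 TPM in every library, and the mast cell gene CPA3 and the B cell gene MS4A1 were listed at 0 in all 8. The 3 macrophage genes CD14, CD68 and CSF1R averaged 1.36, 1.25 and 1.96 TPM. The summed level of the 11 was 3.89 to 5.03 TPM with the empty vector and 4.19 to 6.61 TPM with Siglec-XII.

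**Figure D1:**
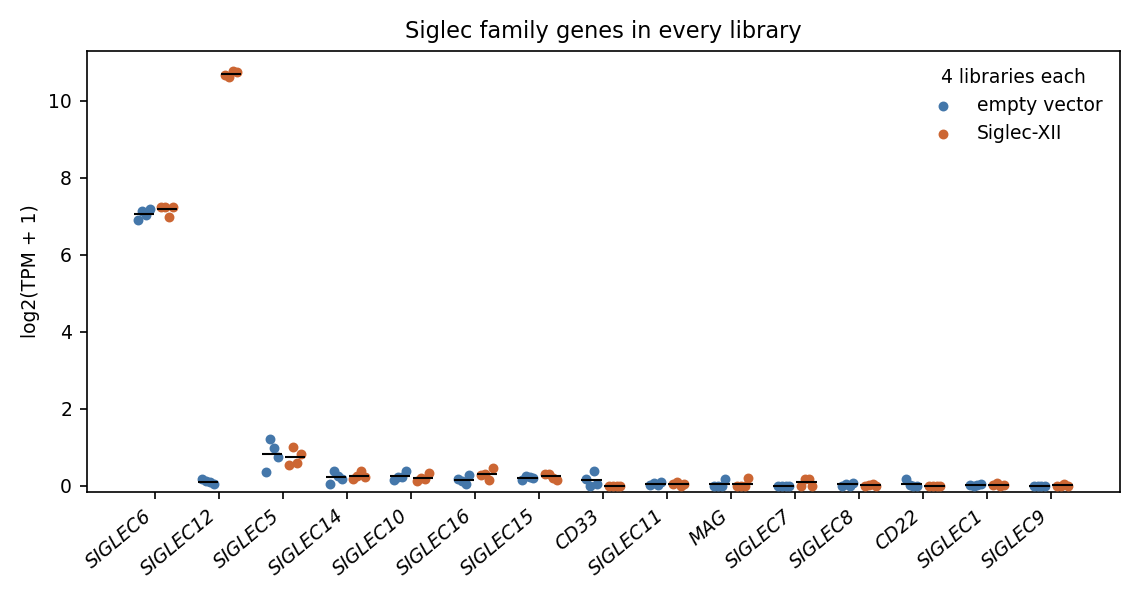
Level of 15 Siglec family genes as log2(TPM + 1) on the vertical axis, with 1 point per library, blue for the empty vector and orange for Siglec-XII (4 libraries each), and a black line at each group mean. SIGLEC6 lies near 7 in both groups, SIGLEC12 is high only in the Siglec-XII libraries, and the other 13 genes reach at most 1.32 TPM.

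The leptin axis had a low level of receptor RNA, several more abundant signalling genes and almost no LEP. LEP (ENSG00000174697) was at 0.0457 TPM in replicate 1 of the empty vector, at 0.0152 and 0.0163 TPM in replicates 2 and 3 of Siglec-XII, and listed at 0 in the other 5 libraries. It did not pass the filter of 1 TPM in at least 4 libraries. The group means of LEP gave p = 1 in an exact permutation test, two-sided. Its promoter window held 1 TTGCNNAA match, which 9.05% of 35116 promoter windows of that length also held on either strand, and 1 match of GCCNNNGGC, the AP-2 motif, which 19.8% held. LEPR, the leptin receptor, was at 1.32, 1.40, 1.63 and 1.58 TPM with the empty vector and at 1.78, 1.48, 1.90 and 1.48 TPM with Siglec-XII. These ranges overlapped, and the LEPR difference of 0.098 (SE 0.12) on the log2 scale had a 95% interval from 0.886-fold to 1.29-fold (limma, adjusted p = 0.727). With 1 library left out the LEPR difference lay between 0.056 (without replicate 3 of Siglec-XII) and 0.13. Of the 11337 stretches of 31 bases of LEPR, 408 occurred in transcripts of other genes, 135 of them in the more abundant LEPROT. Whether reads from shared stretches add to the LEPR value was not tested. Of the 9 genes of the leptin signalling list, LEP and LEPR included, 7 were tested and none was called (limma), 1 had an unadjusted p of 0.05 or less, against 16.5% of all entries tested, and the median difference was 0.12 against 0.067 over all tested entries. LEPROT, which shares the LEPR locus and limits receptor at the cell surface, was at 33.0 and 38.0 TPM in the respective groups. STAT3, the transcription factor downstream of the receptor, was at 31.6 and 34.5 TPM, and SOCS3 and PTPN1, both inhibitors of the pathway, were at 22.7 and 25.0 TPM and at 92.7 and 98.8 TPM. The kinase gene JAK2 averaged 0.981 and 0.656 TPM, reached 1 TPM in 3 libraries and did not pass the filter. Of 6 adipocyte markers, all were under 1 TPM in every library.

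Both syncytin genes were close to 1 TPM. ERVW-1, which encodes syncytin-1, was at 1.48, 1.59, 1.08 and 1.45 TPM with the empty vector and at 1.48, 1.47, 1.44 and 1.22 TPM with Siglec-XII. The Siglec-XII libraries all lay within the range of the empty vector. The ERVW-1 difference was 0.00495 (SE 0.13) on the log2 scale, with a 95% interval from 0.823-fold to 1.22-fold (limma, adjusted p = 0.988), and its sign turned to negative after quantile normalization, with equal upper quartiles, without the most abundant genes, and without replicate 3 of the empty vector or any of replicates 1, 2 and 3 of Siglec-XII. ERVFRD-1, which encodes syncytin-2, varied more, at 1.36, 2.48, 0.935 and 0.546 TPM with the empty vector and 1.21, 1.48, 0.571 and 1.21 TPM with Siglec-XII. The empty vector libraries held both the highest and the lowest ERVFRD-1 value. Its difference of -0.093 (SE 0.26) had a 95% interval from 0.629-fold to 1.40-fold (limma, adjusted p = 0.888), and it was 0.12 without replicate 2 of the empty vector, 0.044 without replicate 3 of Siglec-XII and -0.27 without replicate 4 of the empty vector. MFSD2A, a lysophosphatidylcholine transporter that serves as the receptor of syncytin-2, ranged from 0.423 to 0.938 TPM, was under 1 TPM in all 8 libraries and did not pass the filter. Its group means were 0.760 ± 0.166 and 0.618 ± 0.178 TPM (SD, n = 4 each; two-sided exact permutation test, p = 0.257).

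Some other genes of cell fusion were far more abundant than the syncytins. SLC1A5, the amino acid transporter that serves as the receptor of syncytin-1, averaged 226 and 234 TPM in the empty vector and Siglec-XII groups. ERVH48-1, which encodes suppressyn, an envelope-derived inhibitor that binds the same receptor, averaged 218 and 239 TPM. ERVMER34-1, a further envelope gene, averaged 35.7 and 36.0 TPM. GCM1, the transcription factor that drives syncytin expression in trophoblast, was at 0.632 and 0.711 TPM. Of the 13 genes of this list, 9 were tested and none was called (limma). The list had 4 genes with an unadjusted p of 0.05 or less, against 16.5% of all entries tested, and all 4 had a higher mean with Siglec-XII. They were ERVH48-1 at a difference of 0.13, the gap junction gene GJA1 at 0.23, the tight junction gene TJP1 at 0.21 and the amino acid transporter gene SLC1A4 at 0.21. TJP1 stood on 2 entries, and the entry with the higher mean was used. Its other entry had a difference of 0.12 (limma, unadjusted p = 0.133). The median difference of the list was 0.050, against 0.067 over all tested entries.

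The secreted factors were low, with KISS1 the highest of them. KISS1, which encodes kisspeptin, a peptide that restrains trophoblast invasion and acts on the reproductive axis, was at 3.13, 8.74, 4.50 and 4.83 TPM with the empty vector and at 6.21, 7.13, 5.28 and 5.28 TPM with Siglec-XII. The empty vector libraries held both the lowest and the highest KISS1 value, so the groups overlapped. The KISS1 difference was 0.21 (SE 0.23), with a 95% interval from 0.808-fold to 1.66-fold (limma, adjusted p = 0.690). It was 0.031 without replicate 1 of the empty vector and 0.44 without replicate 2 of the empty vector. Its receptor gene KISS1R was at 5.79 ± 1.18 and 7.28 ± 1.51 TPM (SD, n = 4 each), with an adjusted p of 0.418 (limma).

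PGF, which encodes placental growth factor, a ligand of the VEGF receptor FLT1, was at 2.13, 2.99, 1.64 and 1.63 TPM with the empty vector and at 1.96, 3.10, 1.56 and 3.96 TPM with Siglec-XII. Replicates 2 and 4 of Siglec-XII were the highest, but replicate 3 was the lowest of all 8. The PGF difference of 0.21 (SE 0.23) had a 95% interval from 0.807-fold to 1.65-fold (limma, adjusted p = 0.691). It was 0.042 without replicate 4 of Siglec-XII and 0.36 without replicate 3 of Siglec-XII. FLT1 was at 1.83 and 1.87 TPM, and KDR, the main endothelial VEGF receptor gene, did not pass 0.0221 TPM in any library. The ligand genes VEGFA and VEGFB averaged 21.5 and 21.8 TPM and 49.3 and 50.5 TPM, and the co-receptor gene NRP1 averaged 68.2 and 74.5 TPM. Of the 11 genes of this list, 7 were tested and none was called (limma), and the median difference was 0.042. The list had 1 gene with an unadjusted p of 0.05 or less, against 16.5% of all entries tested. It was the co-receptor gene NRP2, at 33.4 and 40.8 TPM, with a difference of 0.28 (limma, unadjusted p = 0.00361, adjusted p = 0.123). The groups did not overlap for NRP2, as for 10.8% of the entries tested.

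CGA encodes the alpha subunit shared by chorionic gonadotropin and the pituitary glycoprotein hormones. It was at 1.13, 1.19, 0.261 and 1.35 TPM with the empty vector and at 1.14, 0.566, 0.127 and 0.524 TPM with Siglec-XII. Replicate 3 was the lowest in each group, 3 empty vector libraries and 1 Siglec-XII library reached 1 TPM, and the groups overlapped. The CGA difference was -0.32 (SE 0.26), with a 95% interval from 0.539-fold to 1.20-fold (limma, adjusted p = 0.574). It was -0.16 without replicate 3 of Siglec-XII, -0.52 without replicate 3 of the empty vector and -0.71 with a pseudocount of 0.1. Its promoter window held TGACGTCA at 2 places, starting 142 and 124 bases before the start site, a motif held by 1.65% of the promoter windows, and AGATAA, the GATA motif held by 9.17%, at 1 place that does not overlap the others. Among the 19 genes of the placental hormone list, 16 were under 1 TPM in every library and 2 were tested, CGA and the chorionic gonadotropin beta gene CGB7, which averaged 1.09 and 1.27 TPM, and neither was called or had an unadjusted p of 0.05 or less (limma). The CGB genes are near-identical copies, so the division of reads among them is uncertain. The placental lactogen genes CSH1 and CSH2 stayed at or under 0.526 TPM. Of the 10 genes for pregnancy-specific glycoproteins, which are also near-identical, 7 were tested and none was called or had an unadjusted p of 0.05 or less (limma), with PSG5 the highest at 5.17 and 4.44 TPM.

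PAPPA2, which encodes a protease of insulin-like growth factor (IGF) binding proteins made by the placenta, ranged from 0.176 to 0.326 TPM and did not pass the filter. Its means were 0.248 ± 0.0642 and 0.220 ± 0.0319 TPM (SD, n = 4 each; two-sided exact permutation test, p = 0.486). Its paralog PAPPA stayed under 0.144 TPM, whereas the ligand gene IGF2 averaged 5545 and 5297 TPM and STC2, for an inhibitor of these proteases, averaged 110 and 113 TPM. In this list of 15 genes 9 were tested and 1 was called (limma), against 0.648% of all entries. The list had 4 genes with an unadjusted p of 0.05 or less, against 16.5% of all entries, and its median difference was 0.14. Of these 4, the binding protein genes IGFBP4 and IGFBP2 and the receptor gene IGF2R had higher means with Siglec-XII, at differences of 0.29, 0.16 and 0.23, and were not called. The gene called was IGFBP3, for a further binding protein, at 233, 284, 229 and 244 TPM with the empty vector and at 192, 185, 175 and 196 TPM with Siglec-XII. All Siglec-XII libraries were below all empty vector libraries for IGFBP3, and it fell by 0.40 (SE 0.071) on the log2 scale (limma, adjusted p = 0.0466). The groups did not overlap for 3 of the 9 tested genes of this list, IGFBP3 among them, against 10.8% of the entries tested. Over 16 alternatives the adjusted p for IGFBP3 lay between 0.0116 and 0.151, and 5 of them kept it under 0.05. Of the fits that leave out 1 library it passed only without replicate 2 of the empty vector, the highest library. Across the Siglec family and the pathway lists above, SIGLEC12 aside, 37 of 83 genes that are not among the 10 were tested, 10 had an unadjusted p of 0.05 or less, against 16.5% of all entries tested, and IGFBP3 was the single gene called, against 0.648%.

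**Figure D2:**
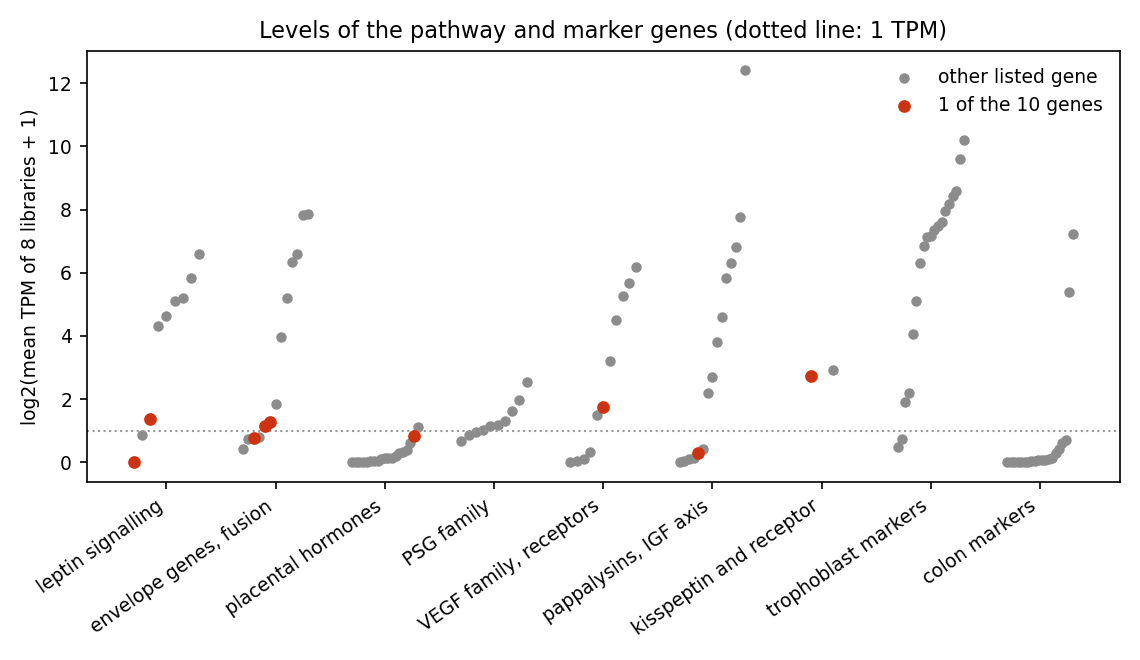
Mean level over the 8 libraries of each gene of the pathway and marker lists, as log2(mean TPM + 1), with red points for the 10 genes and gray for the others. LEP, CGA, PAPPA2 and the syncytin genes lie near or under the dotted line at 1 TPM, while the trophoblast list reaches 1179 TPM (XAGE3) and 18 of 20 colon markers have a mean under 1 TPM.

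Compared with each other on the TPM scale, which is per transcript length, the 10 genes were clearly ordered only for the highest and the lowest. SIGLEC6 was above KISS1 in every library, by 16.1 to 38.1 times. From KISS1 down through PGF, LEPR, ERVW-1, ERVFRD-1 and CGA to MFSD2A, the ranges of neighbours over the 8 libraries overlapped, although KISS1 exceeded PGF in all 8 libraries. MFSD2A lay above PAPPA2 with no overlap, but CGA, at 0.127 TPM in replicate 3 of Siglec-XII where PAPPA2 was at 0.222 TPM, reached below it. LEP lay below the other 9 with no overlap. Of the 10 genes, 5 were at 1 TPM or more in all libraries and 3 in none.

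**Figure D3:**
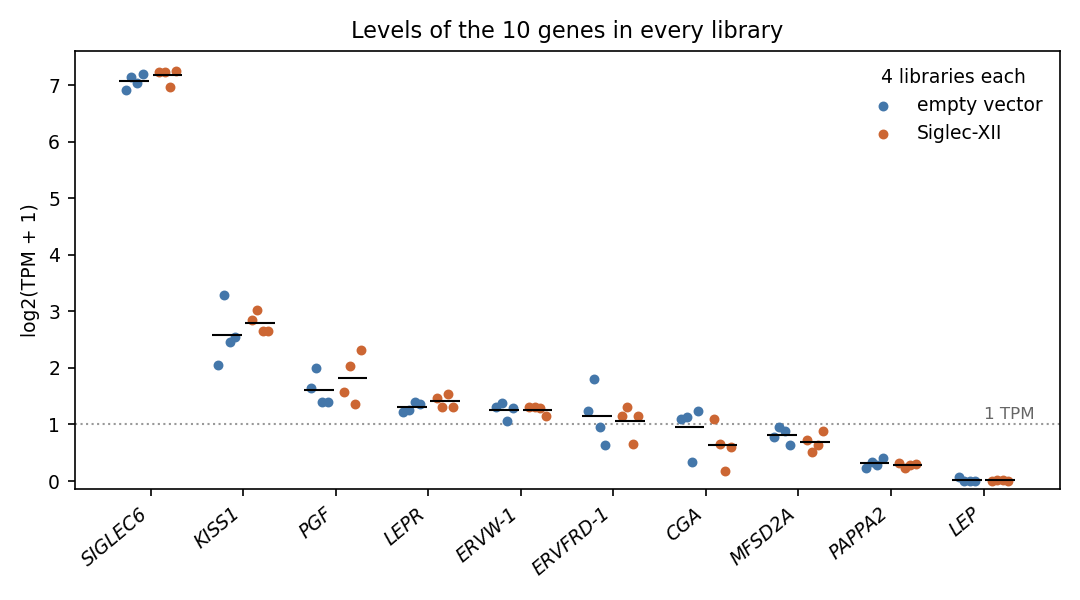
Level of each of the 10 genes as log2(TPM + 1), with 1 point per library, blue for the empty vector and orange for Siglec-XII (4 libraries each), black lines at group means and a dotted line at 1 TPM. SIGLEC6 stands near 7, KISS1 between 2.05 and 3.28, and LEP at or near 0, and the points of both groups overlap for every gene.

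In the comparison of Siglec-XII with the empty vector, 0 of the 7 tested genes were called (limma, adjusted p under 0.05), against 101 entries of the 15590, and 0 of the 7 had an unadjusted p of 0.05 or less, against 2567 entries. None of the 7 had groups that did not overlap, against 10.8% of the entries tested, and the groups of the 3 genes not tested overlapped as well. Among the 7, 5 had a higher and 2 a lower mean with Siglec-XII, and their median difference was 0.098, against 0.067 over all entries. The intervals do not show that the groups are alike. They reached 1.22-fold for SIGLEC6 and 1.66-fold for KISS1 on the upper side and 0.539-fold for CGA on the lower side.

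**Figure D4:**
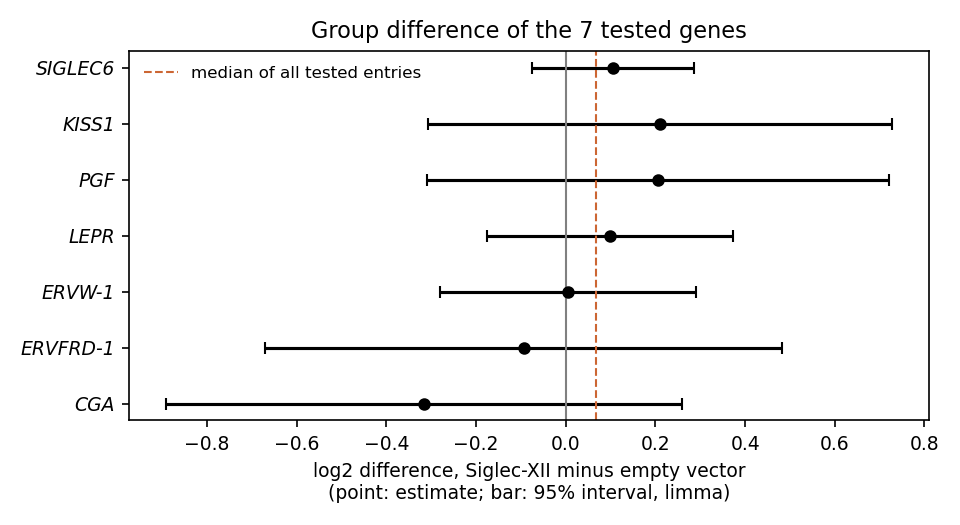
Difference in log2(TPM + 1), Siglec-XII minus empty vector, of the 7 tested genes, with points at the limma estimate and bars for the 95% interval (n = 4 per group). All 7 intervals include 0, and the dashed line marks the median of all tested entries at 0.067.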

How the data were processed

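RNA was sequenced from 8 samples labelled Caco-2 as 100 base paired reads. Per the submitters' processing notes, kallisto 0.45.0 was used, with hg19 as the reference in the study's methods, which name another kallisto version and an mRNA library kit where the labels name a total RNA kit. The authors deposited 1 table of log2(TPM + 1) values per gene entry, with each column summing to 1000000 TPM, so read depth, counting intervals and count models are not available from it, and TPM is relative to the rest of the RNA. Groups were compared with limma 3.58.1 (R 4.3.3; lmFit, eBayes with trend) on the log2 values with a pseudocount of 1, over 15590 entries at 1 TPM or more in at least 4 libraries, with Benjamini-Hochberg adjustment at 0.05. Fold intervals are on the log2(TPM + 1) scale, which understates changes of low genes. For genes under the filter, group means were compared by exact permutation (scipy 1.17.1, two-sided), with 70 labellings and a smallest possible p of 0.0286. The limma script was tested on simulated data. Shared 31-base stretches were counted in GENCODE transcripts lifted to GRCh37. Promoter windows were from RefSeq, where 9 of the 10 genes matched, and motifs for the cAMP response element (TGACGTCA), C/EBP (TTGCNNAA), GATA factors (AGATAA), AP-2 (GCCNNNGGC), TEAD (GGAATG) and GCM1 (ATGCGGG) were searched on both strands. The members and lists were chosen with earlier results of these data known. The text names the 10 genes, SIGLEC12, genes of the lists beside their list's counts, and the 3 entries most correlated with SIGLEC6. The same was planned for LEP but is not given, as LEP was at 0 in 5 libraries. Alternatives were another pseudocount, filters, scalings, a block by replicate number, no trend and each library left out.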

Additional observations from a re-analysis of the deposited data

Results flagged for a closer look

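Within a group of 4 libraries, a library was marked when its gap to the nearest other library as a share of the range of the group exceeded Dixon's 95% critical value. This was met in 4 of 24 groups, or in 3 of 22 with LEP left out, where chance marks about 1 in 20. The rate of chance does not apply to LEP in the empty vector, where 3 of 4 libraries are at 0 and the gap is the whole range. The SIGLEC6 level in replicate 3 of Siglec-XII was 6.98 on the log2(TPM + 1) scale, below the other 3, with a gap of 0.946 of the range. The LEP level in replicate 1 of the empty vector was 0.064, where the other 3 libraries were at 0. The ERVW-1 level in replicate 4 of Siglec-XII was 1.15, below the other 3, with a gap of 0.854 of the range. The CGA level in replicate 3 of the empty vector was 0.33, below the other 3, with a gap of 0.846 of the range.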

How the results depend on the processing

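None of the tested genes among the 10 was called under any of the 16 alternatives. A mean of at least 5 TPM left only SIGLEC6 and KISS1 of them tested. The ERVW-1 difference of 0.00495 reversed to -0.033 after quantile normalization, to -0.030 with equal upper quartiles and to -0.022 without mitochondrial and the 100 most abundant genes, and ran from -0.063 to 0.043 with each library left out. The other differences are given beside their genes. The ERVFRD-1 difference ran from -0.27 to 0.12 with each library left out. Over all entries, the 101 calls became 51 with no filter and 54 with no trend, and 49 (without replicate 3 of the empty vector) to 159 (without replicate 2 of the empty vector) with each library left out. The split of higher and lower calls was 53 and 48, and became 28 and 58 after quantile normalization, 22 and 52 with equal upper quartiles and 25 and 48 without the most abundant genes. With the replicate number as a block 69 entries were called. Deviations of same-numbered libraries correlated at 0.04, 0.028, -0.074 and 0.059, so the numbers were not taken to pair samples. The IGFBP3 call was lost under 11 of the 16 alternatives, with an adjusted p of 0.0922 (limma) under the replicate block. Read depth is unknown, which limits the genes near or under 1 TPM most. The cause of these changes was not tested.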
